A study of Homo sapiens with 6 samples.

Results

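Small Cajal body RNAs (scaRNAs) were examined on 6 arrays from 3 ovarian cancer lines, ES-2, OVCAR-3 plus SKOV-3. For each line 1 array held cells given miR-blank (the control) and 1 held cells given miR-135a-3p. The set was defined as named genes with a symbol beginning SNORA, SNORD or SCARNA and a mean log2 signal of at least 5 over the 6 arrays, with the highest-mean probe set kept per symbol. That gave 19 of the 14884 named genes, and all 19 were SCARNA genes. The annotation used here gave 0 probe sets a symbol beginning SNORD (nucleolar box C/D RNAs) and 0 a symbol beginning SNORA (nucleolar box H/ACA RNAs), so the nucleolar classes of the set have no member here and only the Cajal body class could be described. Of 23 SCARNA genes named, 4 fell below the limit. The members were thus selected on their mean signal, and that they lie above the limit is no finding; SCARNA18 (4.997), SCARNA14 (4.18) and SCARNA23 (3.70) lay just outside, with SCARNA15 (2.13) lowest, and SCARNA11 (5.11), SCARNA1 (5.39) and SCARNA27 (5.87) lay just inside. Of the 19, 18 had a mean of at least 5 in each line as well, and SCARNA11 had 4.99 in ES-2.

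scaRNAs are short noncoding RNAs that guide chemical modification of the small nuclear RNAs of the spliceosome, work that takes place in Cajal bodies of the nucleus. Those with box C/D motifs guide ribose methylation by fibrillarin, those with box H/ACA motifs guide pseudouridine formation by dyskerin, and some carry both kinds of domain. Most mammalian scaRNAs lie in introns and are released when the host transcript is spliced and trimmed. By textbook class and RefSeq synonyms, 5 members were placed with box C/D (SCARNA2, SCARNA7, SCARNA9, SCARNA9L and SCARNA17), 8 with box H/ACA (SCARNA1, SCARNA3, SCARNA4, SCARNA8, SCARNA11, SCARNA16, SCARNA20 and SCARNA22) and 4 with the mixed type (SCARNA5, SCARNA6, SCARNA10 and SCARNA12). SCARNA21 and SCARNA27 were left without a class. This split was made after the values were seen.

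The agent and the other arm of its hairpin are shown because their seeds, the bases in capitals from position 2 to 8, differ, and the labels name the 3p arm. Both are RefSeq mature sequences of MIR135A1 on assembly GRCh38.p14, minus strand, at chr3:52294232-52294253 for the 3p arm and chr3:52294270-52294292 for the 5p arm.
hsa-miR-135a-3p: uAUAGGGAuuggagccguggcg
hsa-miR-135a-5p: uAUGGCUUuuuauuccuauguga
The MIR135A1 probe set read 1.75 to 2.26 on the 3 miR-blank arrays and 11.58 to 12.57 on the 3 miR-135a-3p arrays. It was the 1 gene of 8620 tested that limma called between the transfections, with an adjusted p of 4.83e-05.

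Signals are on the log2 scale as normalised by the submitters, and a difference between transfections is the miR-135a-3p signal less the miR-blank signal. Where 2 signals are given for a line, the miR-blank array comes first. Sets of 3 differences without line names are in the order ES-2, OVCAR-3, SKOV-3. The 3 lines serve as replicates of the transfection comparison, and values within a line have no replicate check. The 2 arrays of a line were given different agents, and no array of a line was repeated. P-values of the transfection comparison therefore measure how the difference varies across the 3 lines. Differences between the lines and technical spread cannot be told apart in them. Signals of different probe sets do not rank abundance, so each RNA was compared with itself across arrays. Array medians lay between 4.16 and 4.23, and all 19 members lay above the median of every array. Of the 5 named epithelial markers, KRT18 was high on every array (9.36 to 10.47) and CLDN7 in OVCAR-3 (9.24 and 8.97, against 4.87 to 5.26 in the other lines), while KRT8 (5.29 to 6.75), KRT19 (4.70 to 5.204) and EPCAM (3.78 to 4.32) were lower. The mesenchymal marker VIM was low in OVCAR-3 (5.08 and 5.54, against 9.60 to 10.85 elsewhere). Of the other 2 mesenchymal markers, FN1 was high in ES-2 alone (11.20 and 11.34), with 4.41 and 6.63 in OVCAR-3 and 5.04 and 4.75 in SKOV-3. SNAI2 was low in OVCAR-3 (4.94 and 4.70), with 10.66 and 10.87 in ES-2 and 8.47 and 10.57 in SKOV-3. FN1 in OVCAR-3 and SNAI2 in SKOV-3 thus lay apart between the arrays of a line. The part of these markers in the scaRNA values was not tested. The Mullerian marker PAX8 was high in SKOV-3 alone (8.80 and 8.12), and WT1 read 5.59 to 7.15. Of the leukocyte markers, CD68 read 7.29 to 10.40 (from 7.96 in the SKOV-3 control to 10.20 in its transfected pair), TYROBP read 4.97 to 5.87, and the endothelial markers PECAM1 and VWF read 3.87 to 4.59.

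Most scaRNA signals were lower after miR-135a-3p in ES-2 and in SKOV-3, and higher in OVCAR-3. In ES-2, 14 of 19 were lower after miR-135a-3p and 5 higher, where 51.1% and 48.8% of all tested genes were. OVCAR-3 had 16 higher and 3 lower, against 40.5% and 59.4% of tested genes. SKOV-3 had 14 lower and 5 higher, against 47.8% and 52.2%. The member median of the log2 difference came to −0.39 for ES-2, 0.28 for OVCAR-3 and −0.36 for SKOV-3, against −0.0057, −0.05 and 0.02 over all tested genes. The order lower, higher, lower over ES-2, OVCAR-3, SKOV-3 was that of 10 members, and of 9.64% of all tested genes. This order was picked out after the values were seen, and no test of the difference between lines was possible with 1 array per line and transfection.

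**Figure D1:**
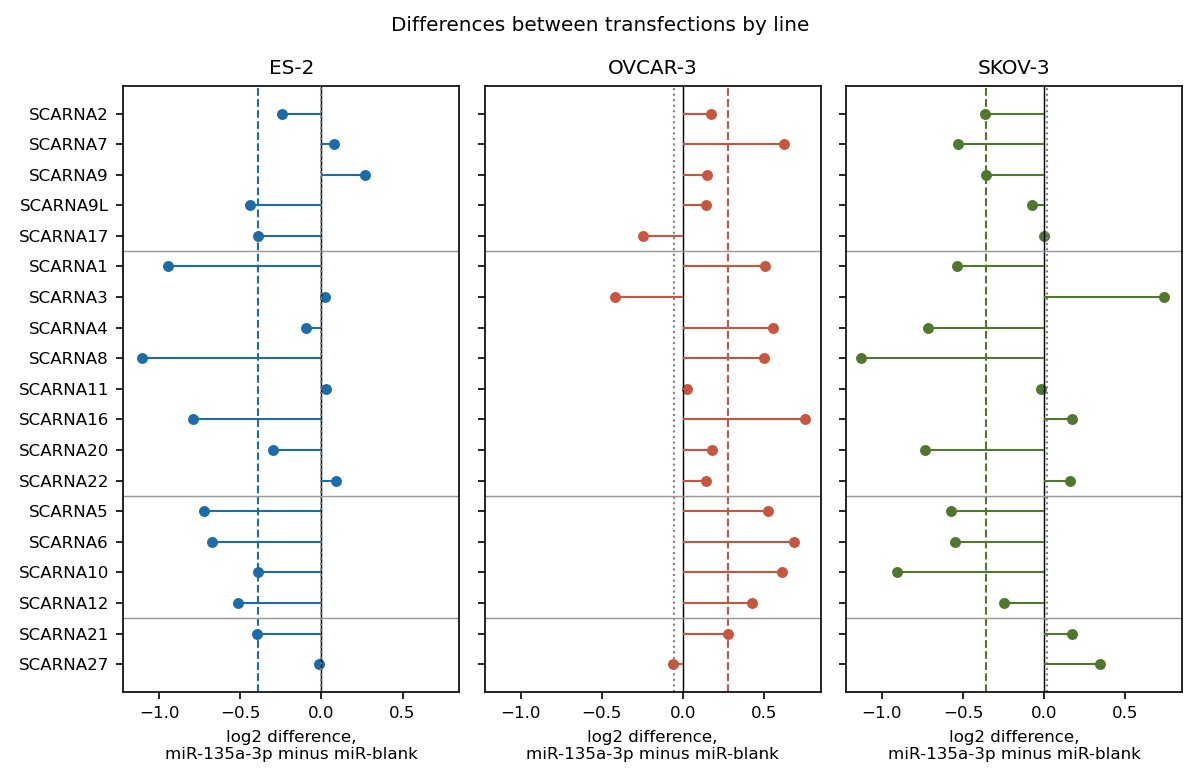
Log2 difference (miR-135a-3p minus miR-blank) of the 19 scaRNAs in each line, 1 point per RNA and 1 array per transfection; horizontal lines part box C/D, box H/ACA, mixed and unassigned members, the dashed line is the member median and the dotted line the median of all tested genes. From left to right the dashed lines lie at −0.39, 0.28 and −0.36, and all 4 mixed members point left, right and left.

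The transfection comparison over the 3 lines called 0 of 19 members with limma at an adjusted p under 0.05, where 0.0116% of all tested genes were called. At an unadjusted p under 0.05 there were also 0 members, where limma gave 1.16% of tested genes higher and 1.75% lower. The adjusted p of the members were 0.9987 or 0.9996. The member median of the mean difference was −0.11, against −0.0097 over all tested genes, and it became 0.0028 without ES-2, −0.30 without OVCAR-3 and −0.037 without SKOV-3. 1 member, SCARNA22, had higher signal in all 3 lines and 1, SCARNA17, lower signal in all 3, where 9.54% and 13.4% of all tested genes did. With OVCAR-3 left out, 5 members had an unadjusted limma p under 0.05, all lower (SCARNA1, SCARNA5, SCARNA6, SCARNA8 and SCARNA10), where 1.51% of tested genes were lower and 1.13% higher at that p, and 0 of 19 passed after adjustment (adjusted p 0.9996 each). Leaving out ES-2, or SKOV-3, gave 0 members at that unadjusted p. The share of all tested genes was not counted for those fits, so these counts cannot be set beside it.

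The 4 mixed scaRNAs had the same order of signs in the 3 lines. Their medians were −0.59, 0.57 and −0.56. SCARNA6 (U88) read 7.23 and 6.56 in ES-2, 6.83 and 7.52 in OVCAR-3, and 7.16 and 6.62 in SKOV-3. Its miR-blank signals thus spanned 6.83 to 7.23, and its miR-135a-3p signal was the higher of the pair in OVCAR-3 alone, with a mean difference of −0.18 ± 0.75 (SD, n = 3). SCARNA10 (U85), a guide of both modifications of the U5 small nuclear RNA, read 8.48 and 8.09 in ES-2, 7.83 and 8.44 in OVCAR-3, and 8.30 and 7.40 in SKOV-3. The mean difference of SCARNA10 was −0.23 ± 0.77 (SD, n = 3). SCARNA5 (U87) differed by −0.73, 0.53 and −0.57, and SCARNA12 (U89) by −0.51, 0.43 and −0.25. In all 4 the 3 transfected arrays overlapped the 3 control arrays.

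Among the 8 box H/ACA members the medians were −0.20, 0.34 and −0.28, and 4 had the order lower, higher, lower. SCARNA8 (U92), a guide for the U2 small nuclear RNA, had the lowest mean difference of all members. Its control and transfected signals were 6.93 and 5.82 in ES-2, 7.23 and 7.73 in OVCAR-3, and 7.14 and 6.01 in SKOV-3. The control signals lay close together, and the difference was −1.11 in ES-2 and −1.13 in SKOV-3 against 0.50 in OVCAR-3, a mean of −0.58 ± 0.94 (SD, n = 3; limma adjusted p 0.9987). SCARNA8 was the 1 member at least 2-fold lower in ES-2 (0.51% of tested genes) and the 1 at least 2-fold lower in SKOV-3 (1.66%). At least 2-fold higher were 0 members in ES-2 (0.162% of tested genes) and 0 in SKOV-3 (2.34%), and OVCAR-3 had 0 past 2-fold either way (0.29% of tested genes higher, 0.383% lower).

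SCARNA1 (ACA35), which also guides modification of U2, read 5.67 and 4.72 in ES-2, 5.33 and 5.83 in OVCAR-3, and 5.67 and 5.13 in SKOV-3. SCARNA4 (ACA26), another U2 guide, read 6.28 and 6.19 in ES-2, 6.52 and 7.07 in OVCAR-3, and 6.42 and 5.71 in SKOV-3. Both had their lower transfected values outside OVCAR-3. SCARNA20 (ACA66) differed by −0.30, 0.18 and −0.73. SCARNA16 (ACA47) read 8.34 and 7.55 in ES-2, 8.79 and 9.55 in OVCAR-3, and 7.70 and 7.87 in SKOV-3. Its differences of −0.79 and 0.76 in ES-2 and OVCAR-3 lay further apart than those of any other member but SCARNA8, and SKOV-3 was at 0.17.

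Like SCARNA16, the box H/ACA members SCARNA3, SCARNA11 and SCARNA22 did not have the order lower, higher, lower. SCARNA3 (HBI-100) read 7.47 and 7.49 in ES-2, 7.88 and 7.46 in OVCAR-3, and 6.20 and 6.94 in SKOV-3, with differences of 0.02, −0.42 and 0.74 and so the reverse signs of most members in OVCAR-3 and SKOV-3. SCARNA11 (ACA57) had 4.97 to 5.30 on all 6 arrays and differed by at most 0.03 in any line. SCARNA22 (ACA11), an orphan H/ACA RNA from an intron of NSD2, read 11.20 and 11.29 in ES-2, 10.17 and 10.32 in OVCAR-3, and 10.39 and 10.55 in SKOV-3. Its difference was small but alike in every line, 0.13 ± 0.04 (SD, n = 3), with a limma adjusted p of 0.9987.

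The 5 box C/D members had medians of −0.24, 0.15 and −0.36, and 2 of them (SCARNA2 and SCARNA9L) had the order lower, higher, lower. SCARNA2, a U2 methylation guide, read 7.61 and 7.37 in ES-2, 6.83 and 7.01 in OVCAR-3, and 6.47 and 6.10 in SKOV-3. SCARNA7 (U90), which guides methylation of U1, read 7.38 and 7.46 in ES-2, 6.53 and 7.16 in OVCAR-3, and 7.54 and 7.01 in SKOV-3. SCARNA17 (U91), a U4 guide, read 8.75 and 8.35 in ES-2, 8.95 and 8.71 in OVCAR-3 and 7.79 on both SKOV-3 arrays, and was the 1 member with a lower value in all lines, at −0.21 ± 0.20 (SD, n = 3; limma adjusted p 0.9987). The SKOV-3 step of SCARNA17 was −0.0018. SCARNA9, also a U2 guide, differed by 0.27, 0.15 and −0.36, and SCARNA9L, a locus named for its likeness to SCARNA9, by −0.44, 0.14 and −0.08. Near-identical copies can share signal, so the values of SCARNA9, SCARNA9L and SCARNA21, which has a lettered copy in RefSeq, are uncertain. SCARNA21 differed by −0.40, 0.28 and 0.17, and SCARNA27 by −0.02, −0.06 and 0.35.

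**Figure D2:**
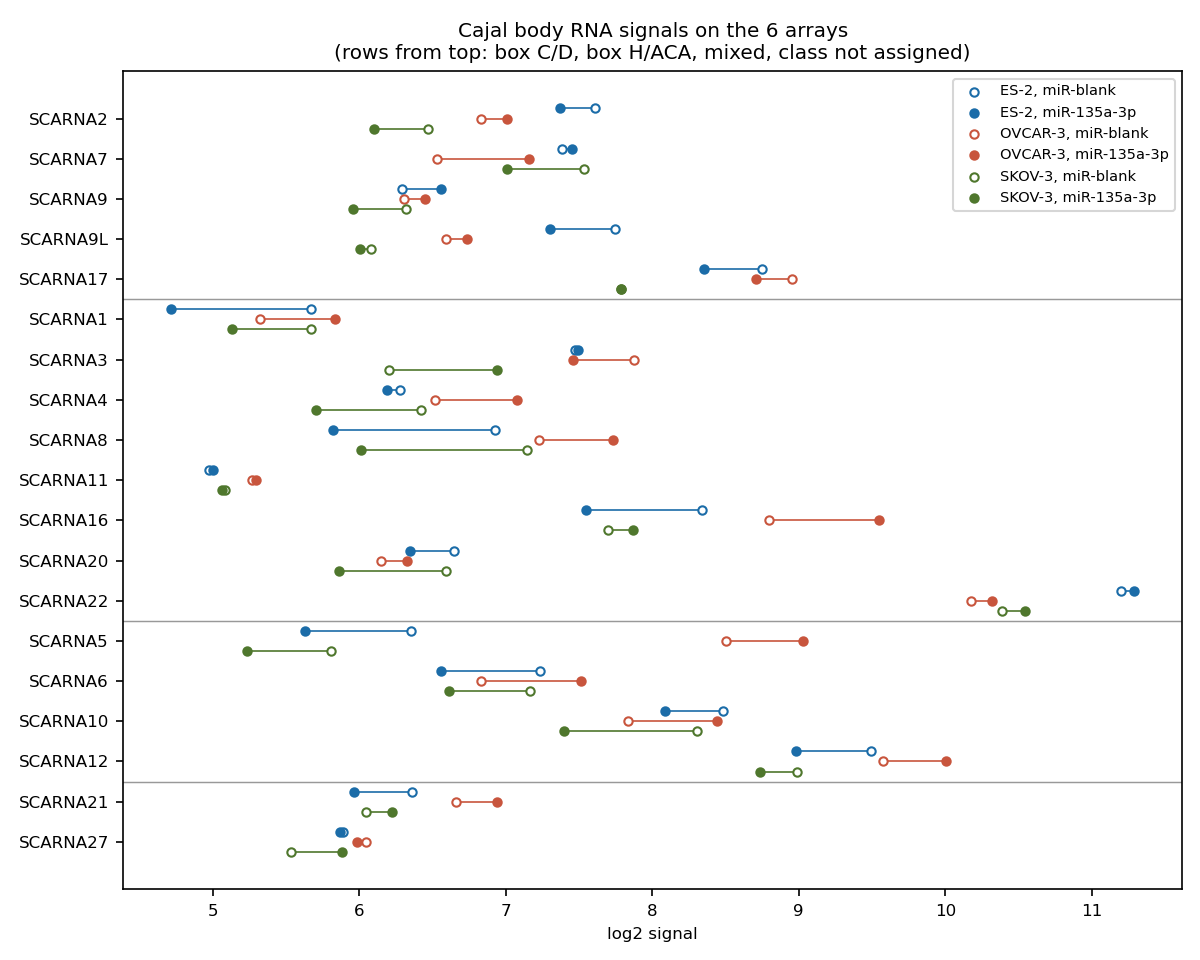
Log2 signal of the 19 scaRNAs on the 6 arrays; open circles are miR-blank, filled circles miR-135a-3p, each pair of a line is joined, and grey lines part the classes. The filled circle of SCARNA8 lies to the left of the open one in ES-2 (5.82 against 6.93) and SKOV-3 (6.01 against 7.14) and to the right in OVCAR-3 (7.73 against 7.23).

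A step of at least 1.5-fold, a size chosen after the results were seen, was reached by 5 members in ES-2, all lower (SCARNA1, SCARNA5, SCARNA6, SCARNA8 and SCARNA16), where 2.17% of tested genes were that much lower and 1.29% that much higher. In OVCAR-3 it was reached by 4, all higher (SCARNA6, SCARNA7, SCARNA10 and SCARNA16), against 1.67% of tested genes higher and 2.25% lower. In SKOV-3, 4 were lower (SCARNA4, SCARNA8, SCARNA10 and SCARNA20) and 1, SCARNA3, higher, against 7.03% and 8.35%. Differences of opposite sign and at least 0.5 on the log2 scale in a pair of lines, also a size chosen afterwards, were held by 8 members and by 2.61% of tested genes. Across the 19 members the differences correlated between ES-2 and SKOV-3 at a Pearson r of 0.41 (Spearman's rho 0.33), between ES-2 and OVCAR-3 at −0.52 (−0.48) and between OVCAR-3 and SKOV-3 at −0.65 (−0.55). Over the 8619 tested genes other than MIR135A1, the same Pearson values were −0.04, 0.09 and −0.12. Members share their arrays and are not independent, so these values are a description. Without SCARNA8 the Pearson value between ES-2 and SKOV-3 was 0.26.

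Other short noncoding RNAs were set beside the scaRNAs, a comparison added after the values were seen. The SNAR genes are a family of related small RNAs transcribed by RNA polymerase III. Related copies can share signal, so the 8 tested genes are not taken as separate readings. Their medians were −0.26, 0.52 and −0.43. Of the 8, 7 had the order lower, higher, lower, where 9.64% of all tested genes did. SNAR-F, for example, read 5.96 and 5.63 in ES-2, 8.19 and 8.98 in OVCAR-3, and 7.96 and 7.26 in SKOV-3. Of 4 tested genes of other stable noncoding RNAs, 2 had that order (RPPH1 and RMRP). RPPH1, the RNA of ribonuclease P, differed by −0.63, 0.30 and −0.51. The signal of RMRP, the RNA of ribonuclease MRP, lay at 12.83 to 13.00 on all arrays. TERC, the telomerase RNA, differed by −0.23, 0.0036 and 0.31, and VTRNA1-3, a vault RNA, by −0.26, 0.24 and 0.88. The 213 tested microRNA hairpins other than MIR135A1 had medians of 0.05, 0.02 and −0.07. Of them 23 had the order lower, higher, lower, beside the 9.64% of all tested genes. The part of short-RNA recovery in the scaRNA values was not tested.

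Genes of the scaRNA pathway were set beside the members. Of the box C/D core proteins, FBL (fibrillarin), NOP58 and SNU13 were tested, with medians of −0.06, −0.17 and 0.46, and 0 of 3 passed limma in either direction. FBL itself differed by −0.18, −0.06 and −0.21. Of the box H/ACA core proteins NOP10, NHP2 and GAR1, 0 of 3 passed, with medians of −0.05, −0.16 and 0.20. Of 12 tested snoRNP assembly genes 0 passed and 1 had the order lower, higher, lower (medians −0.11, −0.16 and 0.16); the largest mean differences were those of RUVBL1 (0.27), a subunit of the R2TP assembly chaperone, and TGS1 (−0.20), which trimethylates the cap of small RNAs. Of 7 tested Cajal body protein genes 0 passed and 0 had that order, with medians of −0.10, −0.44 and 0.24. COIL, the scaffold coilin, differed by 0.05, −0.0012 and 0.16.

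Among 9 tested genes of small RNA decay and trimming, such as the exosome nuclease EXOSC10 (−0.39, −0.20 and 0.18) and the debranching enzyme DBR1 (0.12, −0.16 and 0.17), 0 passed and 0 had that order. The 5 tested genes of RNA polymerase I and ribosome biogenesis had medians of −0.09, −0.38 and 0.47, and 0 passed. The 10 tested SNHG and GAS5 genes, many of which hold small nucleolar or Cajal body RNAs, had medians of −0.28, −0.14 and 0.39, and 0 passed. In that list SNHG8 (6.63 and 8.13) and SNHG16 (8.25 and 9.35) had higher values after miR-135a-3p in SKOV-3, where most scaRNAs were lower. These lists were chosen with earlier results of these data known.

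**Figure D3:**
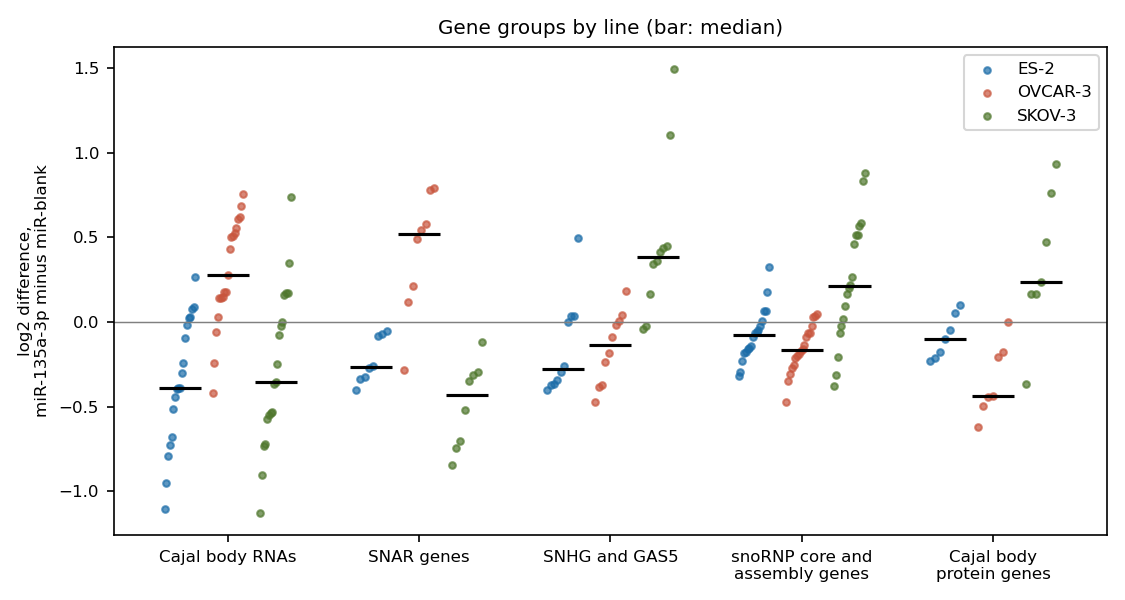
Log2 difference (miR-135a-3p minus miR-blank) of single tested genes in 5 groups, coloured by line, with a black bar at the median of each group and line; points are spread sideways in order of value. scaRNAs and SNAR genes have medians below 0 in ES-2 and SKOV-3 and above 0 in OVCAR-3, whereas the SNHG, snoRNP and Cajal body protein genes have medians below 0 in ES-2 and OVCAR-3 and above 0 in SKOV-3.

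By position in the RefSeq table, 18 of the 19 members lie inside another gene and SCARNA2 lies inside none; strand was not used. For 10 members the containing gene was tested, 9 genes in all. SCARNA5 and SCARNA6 both lie in ATG16L1, an autophagy gene, whose differences were −0.19, −0.50 and 0.18. In OVCAR-3 ATG16L1 was thus lower while both scaRNAs were higher (0.53 and 0.69), and in SKOV-3 it was higher while both were lower (−0.57 and −0.55). SCARNA16 lies in SNHG20, which differed by −0.26, −0.47 and 0.36, and SCARNA12 in PHB2, a prohibitin, which differed by −0.24, −0.09 and 0.21. The sign of the RNA and of its containing gene was the same in 9 of 10 pairs in ES-2, and in 4 of 10 in each other line. Across these 10 pairs the Pearson r was 0.92 in ES-2 (Spearman's rho 0.86). The OVCAR-3 value was −0.51 (rho −0.29) and the SKOV-3 value −0.12 (rho 0.01). The pairs share arrays and 1 gene counts in 2 pairs, so these values are a description.

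**Figure D4:**
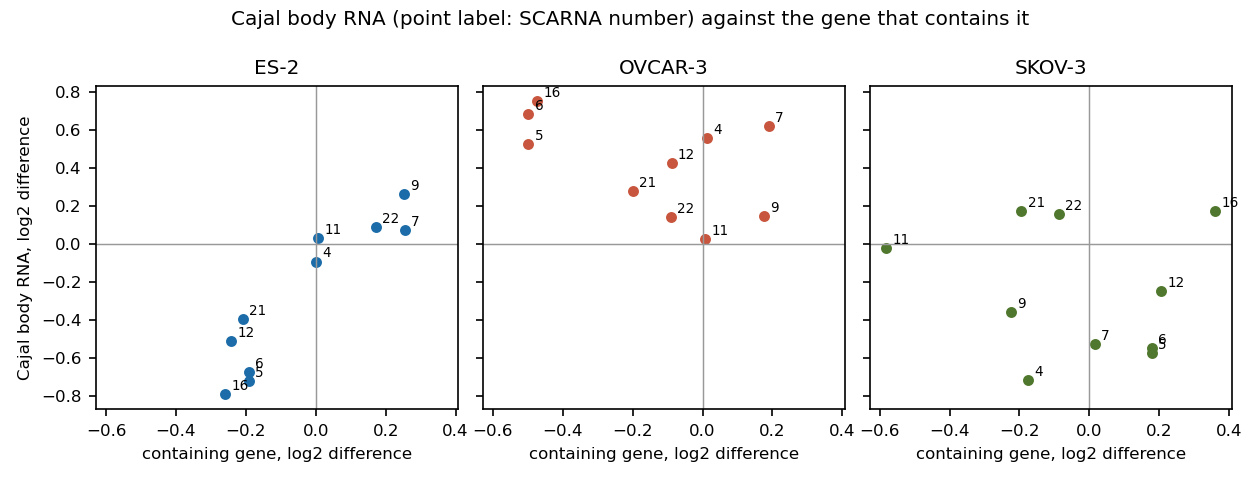
Log2 difference (miR-135a-3p minus miR-blank) of 10 scaRNAs, vertical, against that of the gene that contains each, horizontal, by line; numbers are those of the SCARNA symbols. In ES-2 the points run from lower left (SCARNA16, −0.79 against −0.26) to upper right (SCARNA9, 0.27 against 0.25), and in OVCAR-3 SCARNA5, SCARNA6 and SCARNA16 lie at the upper left.

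The lines were also compared with each other, with the transfection as a block, and a member was called at a limma adjusted p under 0.05 and at least 2-fold. The 2 arrays of a line differ in transfection, so the error is what remains after 1 shared transfection term. SCARNA5 stood apart in OVCAR-3, where it read 8.50 and 9.03, against 6.35 and 5.63 in ES-2 and 5.81 and 5.23 in SKOV-3. Its arrays did not overlap between OVCAR-3 and either other line, and it was 6.86-fold higher in OVCAR-3 than in ES-2 (log2 difference −2.78, ES-2 minus OVCAR-3, SE 0.31, limma adjusted p 0.00121) and 9.50-fold higher than in SKOV-3 (3.25, SE 0.31, limma adjusted p 8.38e-04). SCARNA6, in the same gene, had line means of 6.90, 7.17 and 6.89, and ATG16L1 differed by −0.15 between ES-2 and OVCAR-3 and by −0.55 between OVCAR-3 and SKOV-3 (limma adjusted p 0.633 and 0.102).

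SCARNA16 was higher in OVCAR-3 as well, by 1.23 over ES-2 (2.35-fold, SE 0.35, limma adjusted p 0.0407) and by 1.39 over SKOV-3 (2.62-fold, SE 0.35, limma adjusted p 0.0299). The miR-blank arrays alone gave −0.46 for ES-2 minus OVCAR-3 and the miR-135a-3p arrays −2.005, so the size of the ES-2 difference rested on the transfected arrays. That call was also lost without a filter (1 member called in place of 2), after quantile normalization and after cyclic loess normalization. SCARNA3 (1.10, SE 0.28, limma adjusted p 0.0319) and SCARNA17 (1.04, SE 0.18, limma adjusted p 0.00727) were called higher in OVCAR-3 over SKOV-3. SCARNA3 had 1.68 in the miR-blank arrays and 0.52 in the miR-135a-3p arrays.

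The U2 guide SCARNA2 and the locus SCARNA9L were highest in ES-2. SCARNA9L read 7.75 and 7.30 in ES-2, 6.59 and 6.74 in OVCAR-3, and 6.08 and 6.004 in SKOV-3, and exceeded SKOV-3 by 1.48 (2.80-fold, SE 0.20, limma adjusted p 0.00368). SCARNA2 exceeded SKOV-3 by 1.20 (2.30-fold, SE 0.19, limma adjusted p 0.00743). Neither was called over OVCAR-3. There SCARNA2 had 0.57 more in ES-2 (limma adjusted p 0.0715), and SCARNA9L had 0.86 more (limma adjusted p 0.0197), short of 2-fold. SCARNA9 itself had line means of 6.42, 6.38 and 6.14. SCARNA22 had 0.9967 more in ES-2 than in OVCAR-3 (SE 0.16, limma adjusted p 0.00493) and 0.77 more than in SKOV-3 (SE 0.16, limma adjusted p 0.0172), so it passed the adjusted p and missed the 2-fold limit. Its containing gene NSD2, a histone methyltransferase, had 0.88 and 0.84 more in ES-2 (limma adjusted p 0.0101 and 0.0159), also short of 2-fold.

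In counts, 2 of 19 members were called lower in ES-2 against OVCAR-3 and 0 higher, where 7.82% and 8.65% of tested genes were. Between ES-2 and SKOV-3, 2 were higher and 0 lower in ES-2, where 4.85% and 7.29% were. Between OVCAR-3 and SKOV-3, 4 were higher and 0 lower in OVCAR-3, where 5.6% and 8.96% were. The 4 members of the last pair are 21.1% of the 19. The other 13 members were called in no pair of lines. Without variance moderation, 0 members were called in any pair. The share of all tested genes called that way was not counted, so this 0 cannot be read as particular to the members. SCARNA8 differed by −1.11 for ES-2 minus OVCAR-3 (SE 0.40, limma adjusted p 0.0855), with −0.30 in the miR-blank arrays and −1.91 in the miR-135a-3p arrays. The line means of SCARNA10 (8.29, 8.14 and 7.85), SCARNA1, SCARNA6 and SCARNA9 came from arrays that overlapped between every pair of lines.

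**Figure D5:**
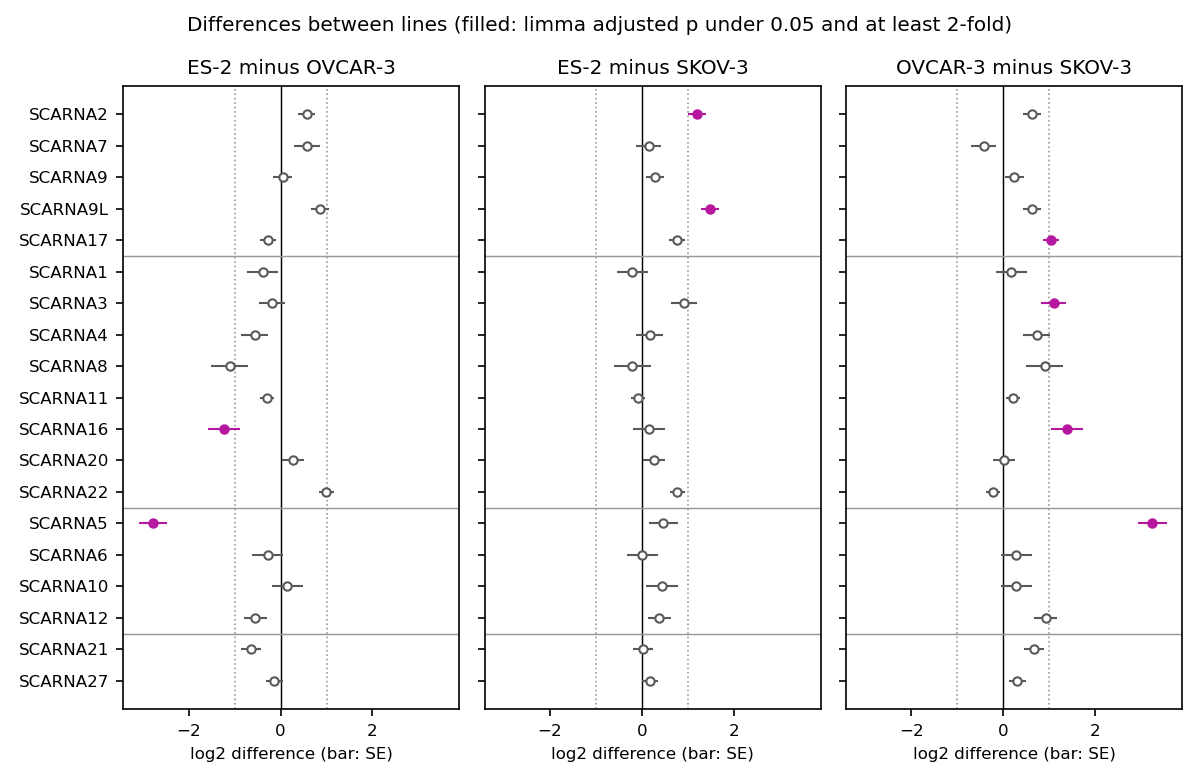
Log2 difference between lines for the 19 scaRNAs from the limma fit, with bars of 1 SE; each line has 2 arrays, filled magenta points were called and dotted lines mark 2-fold. SCARNA5 lies at −2.78 and 3.25 in the 2 comparisons with OVCAR-3, and all called points of the right panel lie above 0.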

How the data were processed

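Per the labels' protocols, total RNA of the 6 samples came from a column kit, and cDNA was made and labelled with a whole-transcript kit. Column kits of this type can recover short RNAs poorly, and recovery was not measured here. Mature scaRNA could not be told from RNA of the host intron. The deposited values are log2 signals per probe set. Transcriptome Analysis Console 3.0, RMA and Affymetrix Expression Console 1.4 were used in some role, per the submitters' processing notes. RMA makes array distributions equal, which would remove a shift of most genes. The number of arrays limits the precision.

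Of 53617 probe sets 16098 had 1 symbol, 0 had several and 37519 were unnamed here; all 16098 matched RefSeq (GRCh38.p14) by Entrez identifier, used for names and for which gene contains which. Genes with a mean of at least 5 were tested (8620). limma 3.58.1 in R 4.3.3 (lmFit, eBayes, two-sided, Benjamini-Hochberg over all tested genes) compared transfections with the line as a block and lines with the transfection as a block. Arrays of a line are paired because they share that line. Over all tested genes, their deviations from transfection means had correlations of 0.90 for ES-2, 0.91 for OVCAR-3 and 0.76 for SKOV-3. Over the 19 members the correlations were lower, at 0.81, 0.74 and 0.56. The procedure was also run on simulated data with independent noise and a transfection effect alike in all lines. No result here rests on that run. Every SCARNA member was named, by the rule fixed for this class, with up to 4 genes of a list by mean difference; further listed genes were picked with their values in view. Members, lists and alternatives were chosen with earlier results of these data known. Alternatives were dropping the block, dropping the filter or raising it to 6, 3 normalizations, an intensity trend, unmoderated variances, averaged probe sets, no minimum fold, each line left out, and, added after seeing the data, the miR-blank arrays alone and the set without SCARNA8.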

Additional observations from a re-analysis of the deposited data

Results flagged for a closer look

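The differences between transfections had opposite signs in some pair of lines, at a size of at least 0.5 on the log2 scale in both, for 8 of the 19 scaRNAs and for 2.61% of all tested genes. The size of 0.5 was chosen after the values were seen, each line has 1 array per transfection, and whether the lines differ was not tested. SCARNA8 stood at −1.11 (ES-2) and −1.13 (SKOV-3) against 0.50 in OVCAR-3. SCARNA1 stood at −0.95 (ES-2) and −0.54 (SKOV-3) against 0.51 in OVCAR-3. SCARNA5 had −0.73 and −0.57 in these lines against 0.53, and SCARNA6 had −0.68 and −0.55 against 0.69. SCARNA16 had −0.79 in ES-2 against 0.76 in OVCAR-3. SCARNA10 had −0.91 in SKOV-3 against 0.61 in OVCAR-3, SCARNA4 had −0.72 against 0.56, and SCARNA7 had −0.53 against 0.62. Member medians were −0.39 (ES-2), 0.28 (OVCAR-3) and −0.36 (SKOV-3).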

How the results depend on the processing

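The transfection comparison called 0 members under every alternative run, the fit with no replicate block (no pairing by line) included. All 19 members were in these runs except with the filter raised to 6, which kept 16. The member median was taken again over the normalizations, the raised filter and the set without SCARNA8. It stayed between −0.42 and −0.35 in ES-2, 0.23 and 0.35 in OVCAR-3, and −0.36 and −0.30 in SKOV-3. Dropping the filter kept the same 19 members and values. Averaging probe sets changed no member, because the 23 SCARNA symbols had 23 probe sets. Neither run could therefore move these medians or the counts of signs that follow. The order lower, higher, lower held 10 members under each normalization, and 9 of the 16 kept with the filter raised to 6. The same sign in all lines held 1 at equal array medians and 3 after quantile normalization, in place of 2. The member median of the mean difference ran from −0.30 to 0.0028 with 1 line left out. Without variance moderation, where the p is that of an ordinary t test, 1 member had an unadjusted p under 0.05 (SCARNA22). With 1 line left out, from 0 to 5 members had an unadjusted limma p under 0.05. Among these fits the share of all tested genes was counted only without OVCAR-3 (1.51% lower and 1.13% higher). Mean differences over the lines are not stable: for 11 of 19 members 1 line turned the sign. Without 1 line they ran from −0.20 to 0.38 for SCARNA3, −0.41 to 0.23 for SCARNA4, −0.61 to 0.069 for SCARNA6, −0.23 to 0.35 for SCARNA7, −0.10 to 0.21 for SCARNA9 and −0.26 to 0.034 for SCARNA9L. They ran from −0.65 to 0.11 for SCARNA10, −0.38 to 0.090 for SCARNA12, −0.31 to 0.46 for SCARNA16, −0.11 to 0.23 for SCARNA21 and −0.037 to 0.17 for SCARNA27. Of the calls between lines, the 2 with ES-2 below OVCAR-3 became 1 without a filter and after quantile or cyclic loess normalization, and 1 was then higher after cyclic loess (SCARNA22). Without variance moderation all 3 pairs of lines had 0, and the share of all tested genes was not counted for that fit. With no minimum fold, ES-2 was above OVCAR-3 for 2 members (13.9% of tested genes) and below for 2 (15.3%), above SKOV-3 for 4 (9.34%) and below for 0 (13.6%), and OVCAR-3 was above SKOV-3 for 5 (11%) and below for 0 (14.6%). In the miR-blank arrays alone, past 2-fold with no test, the same counts were 2 (8.97%) and 1 (8.28%), 3 (6.66%) and 0 (8.18%), and 4 (7.32%) and 1 (9.51%). Fitted without SKOV-3, SCARNA8 was also called between ES-2 and OVCAR-3 (limma adjusted p 0.0196). The cause of these changes was not tested.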
